A study of Mus musculus with 6 samples.

Results

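The 10 genes described here encode transcription factors of the heart muscle cell: Gata4 and Gata6, Nkx2-5, Tbx5 and Tbx20, Mef2a, Mef2c and Mef2d, Hand2 and Hey2. They were chosen by name, with earlier results of these data known, and all 10 were among the 46450 gene symbols of the expression table. The libraries hold poly(A) RNA of cardiomyocytes isolated from excised hearts of C57BL/6 mice aged 3 months, with 3 libraries from TFEB-/- mice and 3 from wild-type (WT) mice. TFEB is a transcription factor that drives lysosomal and autophagy genes, and the comparison asks what its loss does to RNA levels in these cells. The labels do not give the allele, any Cre line or the promoter that drives it, the sex, or whether each library came from a separate or a pooled animal. P-values below therefore measure the spread between these libraries, which may be technical in part.

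The heart factors studied here work as a set. GATA4, GATA6, NKX2-5, TBX5, TBX20, HAND2 and the MEF2 proteins bind near one another at genes of contraction and conduction, and keep them on in the adult heart, while HEY2 is a Notch-driven repressor that helps to set ventricular against atrial identity. MEF2 proteins are held back by class IIa histone deacetylases, such as HDAC4, and are released by calcium and kinase signals.

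The deposited values are in CPM, the reads of a gene per fixed total of reads in a library, rounded to whole numbers, so each value can be off by up to 0.5 CPM, and library sums lay between 999505 and 999655. Between 12070 and 12664 genes reached 1 CPM in a library, and read depth is unknown. Tfeb itself had 6, 5 and 7 CPM in TFEB-/- libraries 1, 2 and 3, against 17, 30 and 23 CPM in WT libraries 1, 2 and 3. It fell by 1.85 on the log2 scale (SE 0.24, limma adjusted p = 0.0267), and the groups did not overlap. Without 1 library at a time the call on the deposited scale held only without WT library 1 (adjusted p from 0.0256 to 0.109), and after median-ratio scaling, defined below, it held in all 6 such fits. The part of the gene deleted is not given in the sources used here, so the reads that remain cannot be placed against it. Mitochondrially encoded transcripts took 22.2%, 30.3% and 25.3% of the TFEB-/- libraries, against 30.7%, 33.9% and 44.6% of the WT libraries, with no overlap (exact two-sided permutation test, p = 0.1, the smallest that 3 against 3 allows). Where one class of RNA takes less of a library, the CPM of all other genes is higher, and 79.8% of the 12437 genes tested had a positive log2 fold change. The results for the factors are therefore also given after median-ratio scaling, which divides each library by the median ratio of its genes to their geometric mean over all libraries. The median log2 fold change of all genes was 0.24 on the deposited scale and 0.01 after median-ratio scaling. The RNA content of a cell and the number of cells cannot be told apart in such bulk samples.

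Of the 10 factors, 1 passed the test: Hey2 fell in TFEB-/- cardiomyocytes, and its call rests on a single rounding step. None was called higher. Over all genes tested, 3.92% were called higher and 0.523% lower by limma on log2(CPM + 0.5), adjusted by the Benjamini-Hochberg method at 0.05. Beside Hey2, the values that stood furthest apart were those of Nkx2-5, higher in every TFEB-/- library, and Mef2c, lower in every TFEB-/- library, and neither passed the adjusted test. Gata4, Gata6, Tbx5, Tbx20, Mef2a, Mef2d and Hand2 had overlapping groups.

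**Figure D1:**
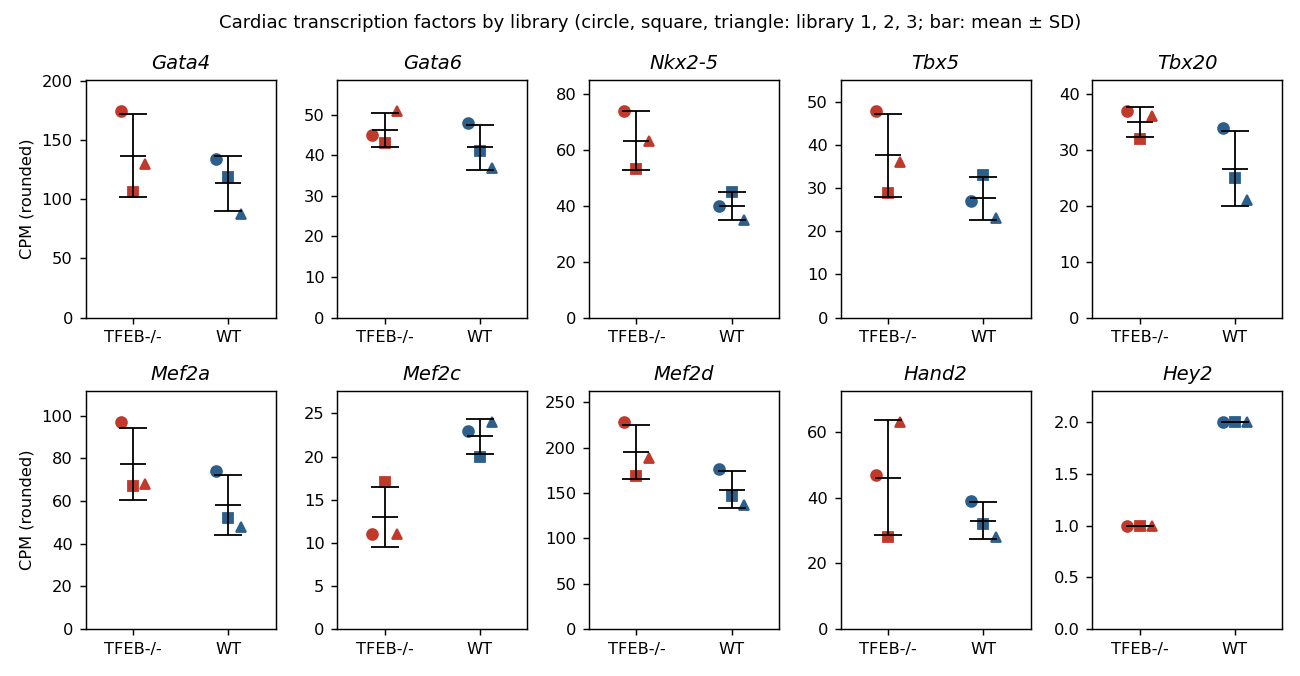
Rounded CPM (y axis, from 0) of each factor in 3 TFEB-/- libraries (red, left) and 3 WT libraries (blue, right), with the mean and SD as black bars. The groups are apart for Nkx2-5, Mef2c and Hey2, and Hey2 shows 1 CPM in all TFEB-/- libraries against 2 CPM in all WT libraries.

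The factors were set beside all genes tested. A positive log2 fold change was seen in 8 of them, beside 79.8% of all genes, and in 7 after median-ratio scaling, beside 50.7% of all genes. Their median log2 fold change was 0.38, beside 0.24 over all genes, and 0.14 beside 0.01 after median-ratio scaling. An unadjusted limma p below 0.05 was found for 3 factors (Nkx2-5, Mef2c and Hey2), where 23.3% of all genes had one. The groups did not overlap for 1 factor that was higher, beside 21.2% of all genes, and for 2 that were lower, beside 2.28%. After median-ratio scaling the same 3 factors stood apart, beside 14.3% of all genes higher and 11.8% lower. After that scaling Hey2 was again the only factor called (adjusted p = 0.0299), while 3.87% of all genes were called higher and 1.61% lower.

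Most of the factors moved together between single libraries, and so did the scale of genes in general. Summed over the 10 factors the level was 763, 545 and 647 CPM in TFEB-/- libraries 1, 2 and 3, against 597, 516 and 443 CPM in WT libraries 1, 2 and 3. TFEB-/- library 2 was the lowest of its group for 8 factors and WT library 3 the lowest of its group for 8. WT library 3 was also the one with the largest mitochondrial share, 44.6%, and TFEB-/- library 2 the one with the largest of its group, 30.3%. The part of that share in the factors' levels was not tested. After median-ratio scaling the sums lay between 535.5 and 643.8 in TFEB-/- libraries and between 541.5 and 586.1 in WT libraries, so the groups overlapped.

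**Figure D2:**
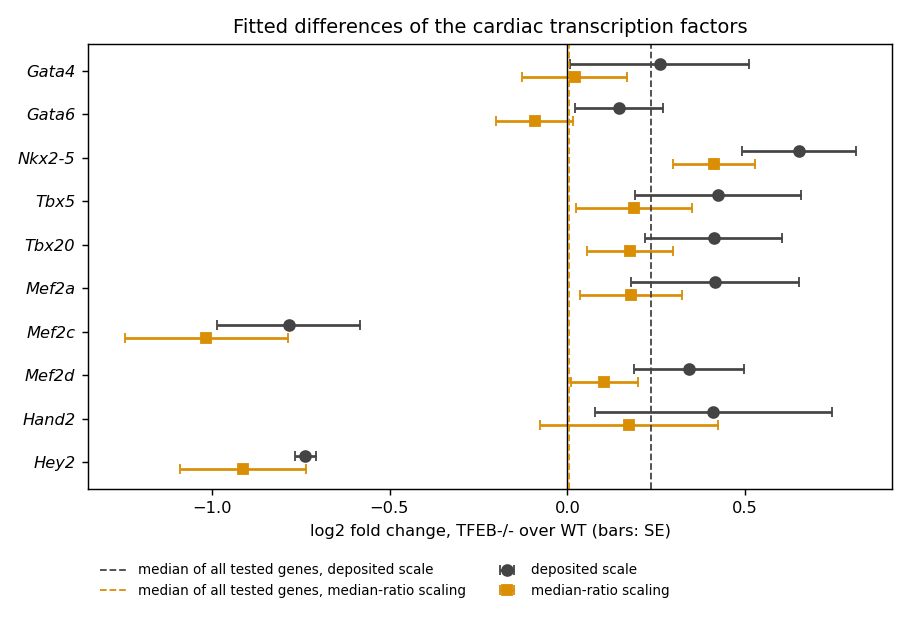
Log2 fold change (x axis, TFEB-/- over WT) of each factor with its SE as bars, on the deposited scale and after median-ratio scaling. Mef2c and Hey2 lie left of 0 on both scales, Nkx2-5 right of 0 on both, and Gata6 changes side, with 0.14 on the deposited scale and -0.09 after median-ratio scaling.

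Gata4 and Gata6 are zinc-finger factors that bind the GATA motif, and Gata4 is needed for the growth response of the adult mouse heart to load. Gata4 (chromosome 14, 63198922 to 63271692, GRCm38) had 175, 106 and 130 CPM in TFEB-/- libraries, against 134, 119 and 88 CPM in WT libraries. The ranges overlapped widely, with the highest and a low value both in TFEB-/- libraries. Its log2 fold change was 0.26 (SE 0.25, limma adjusted p = 0.533) on the deposited scale and 0.02 (SE 0.15) after median-ratio scaling. Gata6 (chromosome 18, 11052064 to 11085635) had 45, 43 and 51 CPM in TFEB-/- libraries, against 48, 41 and 37 CPM in WT libraries. This was the smallest difference of the 10 factors on the deposited scale, with a log2 fold change of 0.14 (SE 0.12, limma adjusted p = 0.515), and its sign turned after median-ratio scaling (-0.09, SE 0.11). Gata4 held 76.0%, 66.7% and 67.4% of the pair's summed CPM per kilobase in TFEB-/- libraries, against 69.4%, 70.2% and 65.9% in WT libraries. The balance between Gata4 and Gata6 was thus 70.0% ± 5.15 in TFEB-/- and 68.5% ± 2.30 in WT cells (SD, n = 3 each), a difference of 1.52 points (exact two-sided permutation p = 0.8). Without TFEB-/- library 1 that difference was -1.44 points.

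Nkx2-5 encodes a homeodomain factor that acts with GATA4 and TBX5, and loss of it disturbs heart growth and conduction. Nkx2-5 (chromosome 17, 26838664 to 26845009, minus strand) had 74, 53 and 63 CPM in TFEB-/- libraries, against 40, 45 and 35 CPM in WT libraries. All 3 TFEB-/- libraries lay above all 3 WT libraries, with 8 CPM between the nearest pair. The means were 63.3 ± 10.5 CPM in TFEB-/- and 40.0 ± 5.0 CPM in WT cells (SD, n = 3 each). The log2 fold change was 0.65 (SE 0.16), and it missed the threshold (limma adjusted p = 0.102). After median-ratio scaling the values were 62.4, 52.1 and 59.2 in TFEB-/- libraries and 39.3, 48.1 and 42.8 in WT libraries, still apart, with a log2 fold change of 0.41 (SE 0.12, limma adjusted p = 0.0907). It passed the threshold in 2 of 23 alternative fits, with library weights (limma adjusted p = 0.0366) and with robust variance estimates (0.0423), and over all 23 the adjusted p ran from 0.0366 to 0.267.

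The Nkx2-5 promoter is shown because its groups were apart. The window of RefSeq (GRCm38.p6, chr17:26841546-26841815, minus strand, 250 bases before to 20 after the annotated start) holds a CCAAT box, in capitals, just past the start site.
Nkx2-5: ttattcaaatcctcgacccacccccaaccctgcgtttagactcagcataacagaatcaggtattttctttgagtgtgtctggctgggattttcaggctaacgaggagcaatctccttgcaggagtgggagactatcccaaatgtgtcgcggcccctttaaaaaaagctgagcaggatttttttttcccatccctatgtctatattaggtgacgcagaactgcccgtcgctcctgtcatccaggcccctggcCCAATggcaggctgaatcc

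Tbx5 and Tbx20 are T-box factors. TBX5 is the one mutated in human Holt-Oram syndrome and in adult mice keeps atrial rhythm and conduction genes on, and Tbx20 is needed in adult mouse cardiomyocytes for contraction. Tbx5 (chromosome 5, 119832668 to 119885219) had 48, 29 and 36 CPM in TFEB-/- libraries, against 27, 33 and 23 CPM in WT libraries. TFEB-/- library 2 lay within the WT range, and the log2 fold change was 0.42 (SE 0.23, limma adjusted p = 0.318). Tbx20 (chromosome 9, 24718138 to 24774303) had 37, 32 and 36 CPM in TFEB-/- libraries, against 34, 25 and 21 CPM in WT libraries. Here WT library 1 reached into the TFEB-/- range, and the log2 fold change was 0.41 (SE 0.19, limma adjusted p = 0.259). After median-ratio scaling both were smaller, at 0.19 (SE 0.16) for Tbx5 and 0.18 (SE 0.12) for Tbx20. With library weights Tbx20 was called higher (limma adjusted p = 0.046), and over its 23 alternatives the adjusted p ran from 0.046 to 0.71. Atrial genes varied strongly among the WT libraries: 10 of them summed to between 1306 and 2053 CPM in TFEB-/- libraries and between 345 and 1949 CPM in WT libraries. Nppa, the atrial natriuretic peptide gene, had 654, 1472 and 1099 CPM in TFEB-/- libraries, against 398, 1180 and 224 CPM in WT libraries. WT library 2 was the highest and WT library 3 the lowest of the WT group both for Nppa and for Tbx5. Among the TFEB-/- libraries the order was the other way round, with library 1 the highest for Tbx5 and the lowest for Nppa, and library 2 the lowest for Tbx5 and the highest for Nppa. The part of atrial cells in the values of Tbx5 was not tested.

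The MEF2 genes encode MADS-box factors that bind AT-rich sites in muscle genes, with Mef2d the form tied to stress-driven growth of the adult mouse heart and Mef2c best known for its role in the developing heart. In TFEB-/- cells Mef2c was lower while Mef2a and Mef2d were higher on the deposited scale, and none of the 3 passed the test. Mef2c (chromosome 13, 83504034 to 83667080) had 11, 17 and 11 CPM in TFEB-/- libraries, against 23, 20 and 24 CPM in WT libraries. No TFEB-/- library reached the WT range, and TFEB-/- library 2 stood 3 CPM below the nearest WT library. The means were 13.0 ± 3.46 CPM in TFEB-/- and 22.3 ± 2.08 CPM in WT cells (SD, n = 3 each), with a log2 fold change of -0.78 (SE 0.20, limma adjusted p = 0.109). After median-ratio scaling the values were 9.28, 16.7 and 10.3 in TFEB-/- libraries and 22.6, 21.4 and 29.3 in WT libraries, and the log2 fold change was -1.02 (SE 0.23, limma adjusted p = 0.0507). Mef2c passed the threshold in 5 of 23 alternatives. These were the filter of 5 CPM (limma adjusted p = 0.04), robust variance estimates (0.0346), library weights (0.0325), and the fits without TFEB-/- library 2 on the deposited scale (0.0241) and after median-ratio scaling (0.0216). Over all 23 the adjusted p ran from 0.0216 to 0.295.

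Mef2a (chromosome 7, 67231163 to 67372858, minus strand) had 97, 67 and 68 CPM in TFEB-/- libraries, against 74, 52 and 48 CPM in WT libraries. Library 1 was the highest in both groups, and the ranges overlapped (log2 fold change 0.42, SE 0.24, limma adjusted p = 0.329). Mef2d (chromosome 3, 88142372 to 88172086) had 228, 169 and 188 CPM in TFEB-/- libraries, against 176, 147 and 137 CPM in WT libraries. It overlapped only through TFEB-/- library 2 and WT library 1 (log2 fold change 0.34, SE 0.15, limma adjusted p = 0.254). After median-ratio scaling the log2 fold changes were 0.18 (SE 0.14) for Mef2a and 0.10 (SE 0.09) for Mef2d.

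The make-up of the MEF2 family, in CPM per kilobase of coding transcript, does not move with the scaling of a library. Mef2c made up 4.49%, 9.11% and 5.65% of the summed Mef2a, Mef2c and Mef2d in TFEB-/- libraries, against 11.3%, 12.3% and 15.3% in WT libraries. Its share was lower in every TFEB-/- library, at 6.42% ± 2.40 in TFEB-/- and 13.0% ± 2.08 in WT cells (SD, n = 3 each), a difference of -6.56 points. By exact two-sided permutation p was 0.1, the lowest value this design can give, and 0.2 adjusted over the 4 shares compared. The size of the Mef2c difference depended on the length used. It was -4.98 points with CPM not divided by length and -4.39 points with the longest transcript (exact permutation p = 0.1 for each). Mef2d held 65.5% ± 2.11 in TFEB-/- and 61.8% ± 1.33 in WT cells, without overlap (difference 3.67 points, exact permutation p = 0.1, adjusted 0.2). That separation depended on the length used. The Mef2d difference was 2.64 points with CPM not divided by length and 2.24 points with the longest transcript (exact permutation p = 0.2 for each). The shares of a library make up a fixed whole, so a lower Mef2c share by itself raises the sum of the others. A gain of Mef2d apart from Mef2c was not tested. Mef2a held 28.1% ± 1.89 in TFEB-/- and 25.2% ± 2.34 in WT cells, with overlap (2.90 points, exact permutation p = 0.3, adjusted 0.4).

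**Figure D3:**
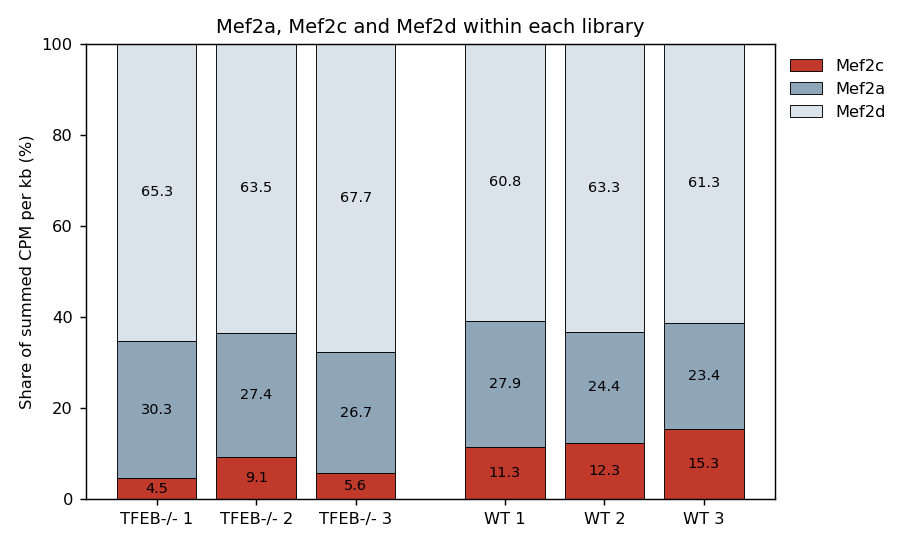
Share of Mef2a, Mef2c and Mef2d in their summed CPM per kilobase (y axis, percent) in each TFEB-/- library (left) and each WT library (right). The Mef2c part is between 4.49% and 9.11% in TFEB-/- libraries and between 11.3% and 15.3% in WT libraries.

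Mef2c is also expressed by endothelial cells, so their markers are given beside it. The 12 endothelial markers were all detected and summed to between 365 and 427 CPM in TFEB-/- libraries and between 375 and 486 CPM in WT libraries. On the deposited scale none was called, 10 of the 12 had a log2 fold change below 0 and their median was -0.15. After median-ratio scaling 11 of the 12 were below 0, the median was -0.39, the sums lay between 310.5 and 401.5 in TFEB-/- and between 400.9 and 499.9 in WT libraries, and 1 marker was called lower, beside 1.61% of all genes. It was Cldn5 (limma adjusted p = 0.021), singled out for its call, which held in 2 of the 6 scaled fits without a library (adjusted p from 0.034 to 0.0851). Cldn5, a tight junction gene of endothelium, had 12, 11 and 11 CPM in TFEB-/- libraries, against 19, 14 and 16 CPM in WT libraries. By library the deposited sums of the 12 markers were 368, 365 and 427 CPM in TFEB-/- libraries, against 486, 375 and 409 CPM in WT libraries. TFEB-/- library 2 was the lowest of its group for these sums and the highest for Mef2c. WT library 2 was the lowest of its group for both. The part of endothelial RNA in the Mef2c values was not tested.

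The promoters of Mef2c and Mef2a are shown because these 2 related genes lay on opposite sides of 0. Capitals mark matches to the motifs searched on both strands. In the most upstream of the 3 RefSeq windows of Mef2c (GRCm38.p6, chr13:83503784-83504053, plus strand) they are a TATA box and 2 CCAAT boxes, all read from the other strand. In that of Mef2a (chr7:67372839-67373108, minus strand) they are a full MEF2 consensus that spans the start site. None of the other windows used for these factors holds it.
Mef2c: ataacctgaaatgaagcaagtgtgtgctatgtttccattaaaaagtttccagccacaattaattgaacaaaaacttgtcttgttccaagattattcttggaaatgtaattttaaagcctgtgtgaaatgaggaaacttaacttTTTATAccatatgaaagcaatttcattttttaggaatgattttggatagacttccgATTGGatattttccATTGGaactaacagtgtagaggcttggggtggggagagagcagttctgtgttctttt
Mef2a: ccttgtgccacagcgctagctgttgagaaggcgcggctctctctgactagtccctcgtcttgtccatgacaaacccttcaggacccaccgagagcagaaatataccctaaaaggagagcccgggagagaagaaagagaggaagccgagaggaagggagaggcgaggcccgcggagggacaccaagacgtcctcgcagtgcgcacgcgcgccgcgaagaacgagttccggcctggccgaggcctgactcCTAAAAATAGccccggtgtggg

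Hand2 encodes a basic helix-loop-helix factor needed for the right ventricle of the mouse embryo. Hand2 (chromosome 8, 57320983 to 57324633) had 47, 28 and 63 CPM in TFEB-/- libraries, against 39, 32 and 28 CPM in WT libraries. The TFEB-/- libraries spanned the whole WT range, and Hand2 had the largest SE of the 10 factors on both scales (log2 fold change 0.41, SE 0.33, limma adjusted p = 0.492; 0.17, SE 0.25 after median-ratio scaling). The genes of the immediate early response, which tissue dissociation is known to switch on, showed a like spread among these libraries. Their 21 members summed to 5589, 2484 and 5899 CPM in TFEB-/- libraries and to between 3121 and 3875 CPM in WT libraries. Of the 21, 0 were called on either scale, and 1 had an unadjusted limma p below 0.05, beside 23.3% of all genes. Their median log2 fold change was 0.24, beside 0.24 over all genes, and -0.0041, beside 0.01, after median-ratio scaling. TFEB-/- library 2 was the lowest of its group for Hand2 and for this sum, as it was for 8 of the 10 factors. The part of this response in the Hand2 values was not tested.

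Hey2 (chromosome 10, 30832359 to 30842801, minus strand) was the least abundant of the factors and the one that passed the test. It had 1, 1 and 1 CPM in TFEB-/- libraries, against 2, 2 and 2 CPM in WT libraries. Before rounding such values lie between 0.5 and 1.5 CPM in TFEB-/- and between 1.5 and 2.5 CPM in WT libraries, so the groups may be nearly equal or several-fold apart. On the log2(CPM + 0.5) scale Hey2 fell by 0.74 (SE 0.03, limma adjusted p = 0.00023), where the small SE goes with identical rounded values within each group. The same pattern was found in 7 genes, Hey2 among them, 0.0563% of those tested, and the opposite one, 2 CPM in all TFEB-/- and 1 CPM in all WT libraries, in 35 genes, 0.281%. Of the 552 genes called, 164 (29.7%) had no spread within either group. After median-ratio scaling Hey2 fell by 0.91 (SE 0.18, limma adjusted p = 0.0299). The call was lost in all 6 fits that left out a library after that scaling (adjusted p from 0.0513 to 0.0937) and with robust variance estimates (0.12). Endothelial cells express Hey2 as well, and the endothelial markers given beside Mef2c had median log2 fold changes of -0.15 on the deposited scale and -0.39 after median-ratio scaling. The part of endothelial RNA in the Hey2 values was not tested. The Hey2 promoter is shown as that of the one factor called. In its RefSeq window (GRCm38.p6, chr10:30842764-30843033, minus strand) the capitals are 2 CCAAT boxes, the first read from the other strand.
Hey2: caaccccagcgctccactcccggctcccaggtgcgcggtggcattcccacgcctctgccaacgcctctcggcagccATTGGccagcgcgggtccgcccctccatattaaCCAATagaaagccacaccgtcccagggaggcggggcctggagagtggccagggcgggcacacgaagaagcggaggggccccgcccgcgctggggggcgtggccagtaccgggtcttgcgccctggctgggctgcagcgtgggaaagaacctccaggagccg

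RefSeq promoter windows of GRCm38.p6 were used for 7 of the 10 factors, 9 windows in all, and not for Gata4, Gata6 and Tbx5. Factor windows on chromosome 18, where Gata6 lies, were left out by the search, while no chromosome was left out of the windows of all genes. Searched on both strands, the E-box CACGTG, the core of the sites TFEB binds, was in 0 of the 9 windows and in 6.57% of 32851 windows of all genes. AGATAA, which zinc-finger factors such as GATA4 bind, was in 1 (Hand2), beside 10.5% of all windows. AGGTGTG, a T-box site, was in 1 (the middle window of Mef2c), beside 5.44%. TNAAGTG, an NKX2-5 site, was in 0, beside 10.6%. The MEF2 consensus was in 1 (Mef2a), beside 3.02%. CCAAT was in 6, beside 35.4%, and TATAAA in 2 (both of Mef2c), beside 12.9%. These are matches of letters within 270 bases and not binding sites.

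Levels per kilobase of coding transcript ranked the factors much alike in both groups. In TFEB-/- cells Gata4 led with 73.9 ± 18.9 CPM per kilobase, then came Mef2d with 62.7 ± 9.68, whose range overlapped that of Gata4. Nkx2-5 followed at 44.0 ± 7.29, apart from both neighbours, then Gata6 at 30.8 ± 2.77, Mef2a at 27.1 ± 5.97, Tbx5 at 19.6 ± 5.0 and Hand2 at 19.6 ± 7.45, with overlap between neighbours from Gata6 down to Hand2. Tbx20 at 9.25 ± 0.70, Mef2c at 5.96 ± 1.59 and Hey2 at 0.39 were each apart from their neighbours (SD, n = 3). In WT cells the order was Gata4 at 61.4 ± 12.7, Mef2d at 49.3 ± 6.51, Gata6 at 27.9 ± 3.70, Nkx2-5 at 27.8 ± 3.47, Mef2a at 20.3 ± 4.90, Tbx5 at 14.4 ± 2.62, Hand2 at 14.0 ± 2.37, Mef2c at 10.2 ± 0.95, Tbx20 at 7.05 ± 1.76 and Hey2 at 0.78 CPM per kilobase (SD, n = 3). There Gata4 overlapped Mef2d, all neighbours from Gata6 down to Hand2 overlapped, and Mef2c, Tbx20 and Hey2 were each apart from the next. The order differed at a pair of places: Nkx2-5 stood above Gata6 and Tbx20 above Mef2c in TFEB-/- cells, whereas in WT cells Mef2c stood above Tbx20 and Nkx2-5 could not be told from Gata6. With the longest annotated transcript as the length, Nkx2-5 came first in TFEB-/- cells (41.5 ± 6.89 CPM per kilobase) and its range overlapped that of Gata4, and in WT cells Mef2c and Tbx20 then overlapped.

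**Figure D4:**
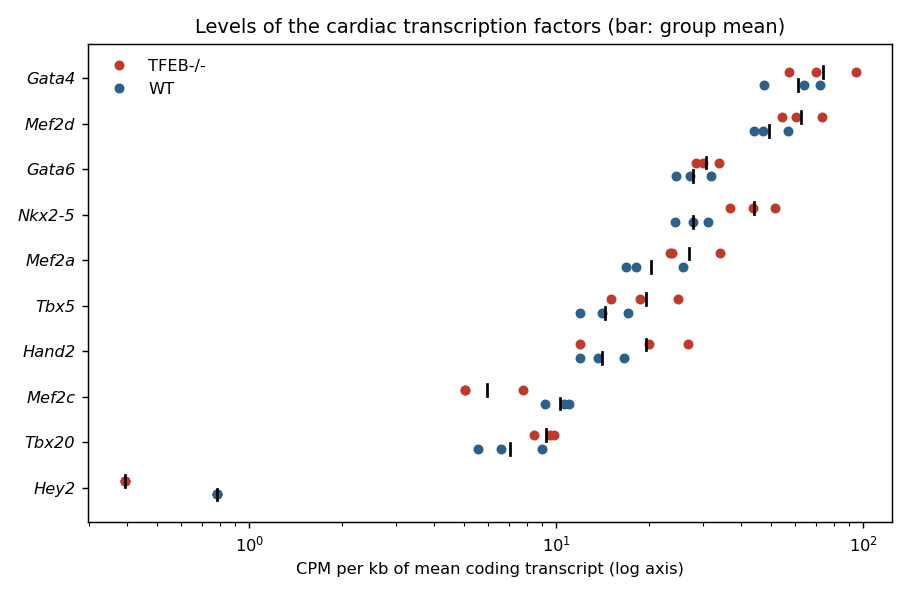
CPM per kilobase of coding transcript (log axis) of the 10 factors in TFEB-/- libraries (red) and WT libraries (blue), ordered by WT level, with group means as black bars. All but Hey2, at 0.39 and 0.78, lie above 5 CPM per kilobase.

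The same comparison was read in genes around the factors. Of 27 other transcription factors of the developing and adult heart, 20 were tested and none was called on either scale, and 3 had an unadjusted limma p below 0.05, beside 23.3% of all genes. Their median log2 fold change was 0.25, beside 0.24 over all genes, and 0.02, beside 0.01, after median-ratio scaling. Gata5, Hand1, Isl1, Irx6, Mef2b and Nkx2-6 were listed at 0 in every library. Klf15, a repressor of cardiac growth in mice, had 27, 34 and 56 CPM in TFEB-/- libraries, against 30, 47 and 36 CPM in WT libraries, with overlapping groups.

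Of 29 partners and cofactors of the factors, 1 was called higher and 0 lower, beside the 3.92% and 0.523% of all genes, and their median log2 fold change was 0.22 (-0.0051 after median-ratio scaling). The gene called was Hdac4, a class IIa histone deacetylase that binds and represses MEF2 proteins. It had 26, 23 and 28 CPM in TFEB-/- libraries, against 17, 17 and 18 CPM in WT libraries, without overlap. Hdac4 rose by 0.55 on the log2 scale (SE 0.09, limma adjusted p = 0.0446), and the call was lost after median-ratio scaling (0.32, adjusted p = 0.225), which called no partner. Leaving out a library on the deposited scale kept the call only without TFEB-/- library 2, with adjusted p from 0.0247 to 0.136 over the 6 fits.

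Signals that reach the factors gave few calls. Of 10 genes of the Notch pathway, which drives Hey2, none was called on either scale, beside 3.92% of all genes called higher and 0.523% lower on the deposited one. Of the 10, 1 had an unadjusted limma p below 0.05, beside 23.3% of all genes. Their median log2 fold change was 0.03, and -0.20 after median-ratio scaling. Hes1, a Notch target, had 136, 74 and 78 CPM in TFEB-/- libraries, against 69, 93 and 59 CPM in WT libraries, with overlap. Jag2, a Notch ligand, had 27, 20 and 28 CPM in TFEB-/- libraries, against 17, 18 and 19 CPM in WT libraries, without overlap (log2 fold change 0.45, SE 0.15, limma adjusted p = 0.17). Without TFEB-/- library 2 it was called on the deposited scale (adjusted p = 0.0344), and after median-ratio scaling its adjusted p was 0.477. Of 14 genes of BMP signalling, which feeds Nkx2-5 and Tbx20 in the embryo, 1 was called higher and 0 lower, beside 3.92% and 0.523% of all genes. Their median log2 fold change was 0.12, and -0.12 after median-ratio scaling, which called none. It was Bmp4, a BMP ligand, with 2, 2 and 2 CPM in TFEB-/- libraries, against 1, 1 and 1 CPM in WT libraries. That is again a single rounding step, and the call was lost after median-ratio scaling (limma adjusted p = 0.122).

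Of 10 genes of the calcium and kinase signals that act on MEF2, none was called on the deposited scale, beside 3.92% of all genes called higher and 0.523% lower. Of the 10, 1 had an unadjusted limma p below 0.05, beside 23.3% of all genes. Their median log2 fold change was 0.05, and -0.17 after median-ratio scaling. Rcan1, a calcineurin-induced regulator, had 315, 248 and 330 CPM in TFEB-/- libraries, against 475, 267 and 165 CPM in WT libraries, the WT libraries being the more spread. Camk2d, the main cardiac CaM kinase II gene, had 91, 83 and 76 CPM in TFEB-/- libraries, against 87, 73 and 69 CPM in WT libraries, with overlap. After that scaling 1 of the 10 was called lower, beside 1.61% of all genes: Ppp3cb, a catalytic subunit gene of calcineurin, with 28, 26 and 26 CPM in TFEB-/- libraries, against 32, 31 and 28 CPM in WT libraries (limma adjusted p = 0.0433). None of the 6 scaled fits without a library called it. The gene of the other catalytic subunit, Ppp3ca, had 15, 18 and 19 CPM in TFEB-/- libraries, against 24, 21 and 22 CPM in WT libraries, and was called on neither scale (adjusted p = 0.152 and 0.0769). Ppp3cb and Ppp3ca were singled out once their values were known.

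Of 34 genes known to be bound or driven by these factors, 4 were called higher and 0 lower, beside 3.92% and 0.523% of all genes, and 11 had an unadjusted limma p below 0.05, beside 23.3%. Their median log2 fold change was 0.40, beside 0.24 over all genes, and 0.16, beside 0.01, after median-ratio scaling. Adora1, the adenosine receptor that slows the heart, had 28, 29 and 29 CPM in TFEB-/- libraries, against 12, 13 and 12 CPM in WT libraries. It rose by 1.19 on the log2 scale (SE 0.06, limma adjusted p = 0.000481). Ankrd1, a stretch-responsive titin-binding protein gene, had 3170, 3669 and 3744 CPM in TFEB-/- libraries, against 1092, 1378 and 1157 CPM in WT libraries. It rose by 1.55 (SE 0.12, limma adjusted p = 0.0046). Both genes were also called after median-ratio scaling (limma adjusted p = 0.0134 for Adora1 and 0.0138 for Ankrd1), a call lost there only without TFEB-/- library 3 (0.0517 for each).

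Acta1, the skeletal alpha-actin gene that is re-expressed in the stressed heart, had 2100, 3460 and 3925 CPM in TFEB-/- libraries, against 269, 468 and 608 CPM in WT libraries. It rose by 2.85 (SE 0.40, limma adjusted p = 0.0322) and by 2.61 after median-ratio scaling (adjusted p = 0.0152, lost there without TFEB-/- library 3 at 0.0595), though none of the 6 fits without a library on the deposited scale called it. After median-ratio scaling 4 of the 34 were called higher, beside 3.87% of all genes (Adora1, Ankrd1, Acta1 and Kcnh2, a potassium channel gene), and 1 lower, beside 1.61% (Ppargc1a, a coactivator of mitochondrial genes and a MEF2 target). Ppargc1a had 20, 21 and 23 CPM in TFEB-/- libraries, against 29, 41 and 27 CPM in WT libraries (limma adjusted p = 0.158 on the deposited scale and 0.0457 after scaling). Kcnh2 had 213, 159 and 162 CPM in TFEB-/- libraries, against 92, 112 and 88 CPM in WT libraries (0.0603 and 0.0376). After median-ratio scaling without 1 library at a time, Ppargc1a was called in 1 of 6 fits and Kcnh2 in 1 of 6. Acta1, Ppargc1a and Kcnh2, too, were singled out once their values were known.

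**Figure D5:**
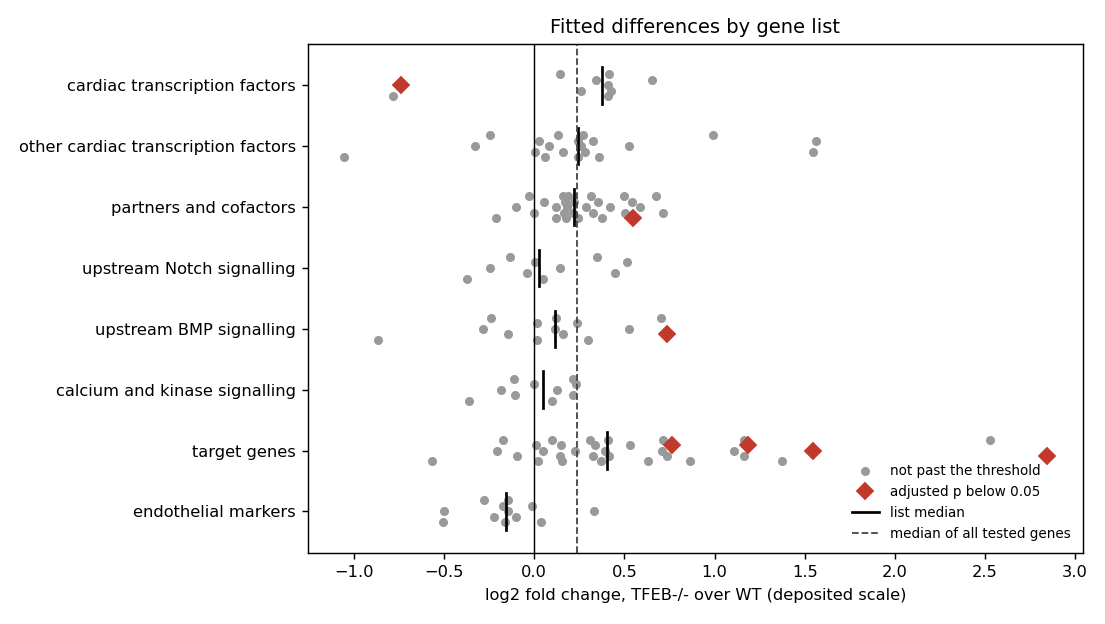
Log2 fold change (x axis, TFEB-/- over WT, deposited scale) of every tested gene of the 10 factors, the 6 pathway lists around them and the endothelial markers, with each list's median as a bar and genes past the threshold as red diamonds. The medians of the lists drawn run from -0.15 (endothelial markers) to 0.40 (target genes), and that of the 10 factors is 0.38.

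Markers of the cell types a heart preparation can hold were read in the same libraries. All 10 cardiomyocyte markers were present, summing to between 63619 and 85204 CPM in TFEB-/- libraries and between 52376 and 75194 CPM in WT libraries, with 0 of 10 called on either scale. The 9 ventricular genes summed to between 14485 and 17350 CPM in TFEB-/- libraries and between 11209 and 13771 CPM in WT libraries. The single one of the 9 called, on either scale, was Hey2. It was lower, beside 0.523% of all genes called lower on the deposited scale and 1.61% after median-ratio scaling. Smooth muscle and pericyte markers summed to between 554 and 565 CPM in TFEB-/- libraries and between 368 and 458 CPM in WT libraries, with 1 of 9 called higher on either scale, beside 3.92% of all genes on the deposited one. The single markers were mixed: 4 of the 9 had a log2 fold change below 0 (median 0.08, beside 0.24 over all genes). After median-ratio scaling 5 of the 9 did (median -0.15). Macrophage markers summed to between 44 and 54 CPM in TFEB-/- and between 21 and 32 CPM in WT libraries, with 0 of 9 tested called. All 9 had a log2 fold change above 0 on the deposited scale, beside 79.8% of all genes, and 0 were below 0 after median-ratio scaling. Their median was 0.61, beside 0.24 over all genes, and 0.39, beside 0.01, after median-ratio scaling. None of these last 3 lists overlapped between the groups on the deposited scale. After median-ratio scaling the ventricular sums overlapped, at 14230 to 15340 in TFEB-/- and 13520 to 14700 in WT libraries, and the other 2 lists stayed apart, at 467.5 to 555.1 against 429.7 to 449.8 for smooth muscle and pericytes and 39.7 to 53.1 against 20.6 to 39.1 for macrophages. Fibroblast markers summed to between 124 and 172 CPM in TFEB-/- and between 111 and 134 CPM in WT libraries. Of these 10 markers, 1 was called higher on the deposited scale, beside 3.92% of all genes, and none after scaling. In the same order of groups, epicardial markers summed to between 13 and 17 CPM and between 15 and 16 CPM (0 of 6 called). Red blood cell markers summed to between 6 and 10 CPM and between 5 and 35 CPM (0 of 3 tested called, Alas2 listed at 0). The part of these cell types in the levels of the factors was not tested.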

How the data were processed

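Per the labels' protocols, total RNA of isolated cardiomyocytes was extracted with TRIzol and made into stranded poly(A) libraries. The authors deposited 1 value per gene and library, handled here as a score taken to be CPM rounded to whole numbers, since the name of the table gives kallisto and CPM and every library sums to about the same total. Per the submitters' processing notes, STAR, HISAT2, kallisto, Salmon, RSEM, StringTie, DESeq2, edgeR and GRCm38 were named, with no versions and no roles. Scaling by length, and read depth, are not given in the sources used here, so no counting interval can be given. Precision is limited by rounding to whole numbers, an error of up to 0.5 CPM.

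Of 46517 entries, 26 names that had become dates were restored and 303 blank names replaced by IDs, 46005 IDs were found in GENCODE M21, and values of a shared symbol were summed. Genes that reached 1 CPM in 3 or more libraries (12437) were tested with limma 3.58.1 (R 4.3.3, statmod 1.5.0) on log2(CPM + 0.5), with genotype as the only term and a mean-variance trend. Two-sided p-values were corrected over these genes by Benjamini-Hochberg, with a threshold of 0.05. The added 0.5 CPM makes fold changes of low genes smaller. Rounding hides the whole reads, so no count model was used. Levels per kilobase use the mean length of a gene's protein-coding transcripts. Shares were compared by exact two-sided permutation. The fit was tested on simulated data first. Changes were set there only in genes with mean levels above that of Hey2, and no shift shared by a whole library was added. That test therefore does not cover the Hey2 call.

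The factors and the gene lists were chosen with earlier results of these data known. Named genes are the 10 factors, Tfeb, and of each pathway list up to 3 genes in each direction with the smallest adjusted p past the threshold, or the 2 with the highest mean where none passed. Of these, 2 are not reported here. Replicate numbers were not used to pair libraries. Alternatives changed the scaling, pseudocount, filter, design, variance estimate, library weights and the set of libraries.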

Additional observations from a re-analysis of the deposited data

How the results depend on the processing

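The count of factors called higher, 0, became 1 with robust variance estimates and 2 with library weights. The count called lower, 1, became 0 with a replicate block after median-ratio scaling and 2 with library weights, and ranged from 0 to 2 over fits without 1 library. That range covers the deposited scale and, chosen after seeing the data, median-ratio scaling, under which 5 of 6 such fits called none. With robust estimates or a filter of 5 CPM, which Hey2 does not pass, the 1 gene called lower was Mef2c. The replicate block alone changed neither count (Hey2 adjusted p = 0.0173). The same-numbered libraries deviated together with correlations of 0.14, -0.05 and 0.09, so the numbers were not taken to pair them.

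Over all genes, 487 called higher became 159 with the replicate block, 256 with block and median-ratio scaling, 780 with robust estimates and 2241 with library weights, and ranged from 80 to 516 without 1 library. The 65 called lower became 200 with median-ratio scaling, 188 without mitochondrial transcripts, 172 with quantile normalization, 26 with the block, 121 with block and median-ratio scaling and 338 with library weights, and ranged from 38 to 308 without 1 library. The lowest counts came without TFEB-/- library 3 and the highest without TFEB-/- library 2.

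Signs turned as follows. With median-ratio scaling, without mitochondrial transcripts, with quantile normalization, and with block and median-ratio scaling, the log2 fold change was -0.092, -0.079, -0.091 and -0.092 for Gata6, -0.23, -0.22, -0.24 and -0.23 for Klf15, -0.14, -0.13, -0.093 and -0.14 for Rcan1 and -0.11, -0.10, -0.13 and -0.11 for Camk2d. With library weights Hes1 was at -0.065. Without 1 library, on either scale, the ranges were -0.17 to 0.24 for Gata6, -0.10 to 0.43 for Gata4, -0.10 to 0.73 for Hand2, -0.53 to 0.23 for Klf15, -0.10 to 0.53 for Hes1, -0.41 to 0.49 for Rcan1 and -0.15 to 0.23 for Camk2d, and -1.44 to 3.19 points for the share of Gata4. The cause was not tested. The other factors kept their sign in all alternatives run. Depth is unknown, and rounding limits Hey2 and Bmp4.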
